A study of Mus musculus with 6 samples.

Results

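Transcripts of 37 DNA damage signalling and repair genes were followed in whole mouse ovaries at day 1. The genes were taken by symbol from a list that covers checkpoint kinases, break sensing, homologous recombination, the Fanconi anemia pathway, mismatch repair, end joining and PARP1. All 37 symbols were found among the 25164 genes of the deposited table, all had a mean of at least 1 FPKM over the 6 libraries, and none was at 0 in any library. FPKM counts fragments per kilobase of transcript and is scaled to library depth, so levels can be compared between genes of different length.

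The 6 libraries came from C57BL/6 ovaries, 3 labelled hnRNPL flox/flox;Stra8-cre (cKO) and 3 labelled wild type (WT). The protein made from Hnrnpl binds RNA and acts in splicing, and the Stra8 promoter drives Cre in germ cells, so somatic cells of the ovary are not expected targets. The sources used here do not say whether WT animals carried the floxed allele or Cre, or whether each library is a different animal, so p-values measure the spread between these libraries. The labels' protocol mentions a hormone challenge without naming it. The series title places the study in primordial follicle formation and in splicing of synapsis genes.

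Cells read DNA breaks through a small set of kinases. ATM answers breaks of both strands, and ATR answers exposed stretches of single-stranded DNA. Repair then runs by homologous recombination, in which BRCA1, PALB2 and BRCA2 act together at the break, or by end joining, which starts with the Ku proteins. In the ovary these proteins act in germ cells, where meiotic prophase makes and repairs programmed breaks before birth, and in dividing somatic cells, where breaks arise at replication forks. A bulk library mixes these cells, and fewer cells of a type cannot be told apart from less RNA per cell.

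No member passed the test for a difference between cKO and WT ovaries. Of 12442 genes tested, 0.121% were called, and 0 of 37 members were among them (limma, Benjamini-Hochberg adjusted p under 0.05). At an unadjusted p under 0.05, 4 members were counted, 10.8% of the list, against 14.2% of all tested genes. The median log2 fold change of the 37 members was 0.05, against 0.08 for all tested genes. Of the members 25 were positive and 12 negative, against 8108 and 4334 of all tested genes. The members with the smallest p were Chek1, Palb2, Rnf8 and Xrcc5, all with higher means in cKO libraries, and the lowest adjusted p was 0.188.

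Promoters of Chek1, Palb2, Rnf8 and Brca2 are printed, the first 3 because they had the smallest p. Brca2, whose protein PALB2 carries to breaks, was picked beside Palb2 for its negative log2 fold change, which did not pass. Rad51b, also negative, had a smaller p than Brca2. The printed promoters are RefSeq sequences of build GRCm38.p6. They run from 250 bases before to 50 after the gene start, read 5′ to 3′ on the gene's strand. GENCODE M21 places the Chek1 gene at 36708482 to 36727065, so the printed Chek1 window lies inside it. Motifs near that other start were not searched. Capitals mark the CCAAT box (CCAAT, bound by NF-Y), the GC box (GGGCGG, bound by SP factors), the cell cycle homology element CHR (TTTGAA), the cAMP response element CRE (TGACGTCA) and the TATA box (TATAAA), each searched on both strands.
Chek1 (chr9:36726609-36726908, minus strand): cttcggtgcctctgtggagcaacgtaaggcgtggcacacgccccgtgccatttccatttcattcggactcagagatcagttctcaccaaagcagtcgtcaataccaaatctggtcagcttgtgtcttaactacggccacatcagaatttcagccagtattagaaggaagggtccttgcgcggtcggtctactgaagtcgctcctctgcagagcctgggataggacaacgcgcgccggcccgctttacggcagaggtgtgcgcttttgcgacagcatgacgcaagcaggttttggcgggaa
Palb2 (chr7:122132897-122133196, minus strand): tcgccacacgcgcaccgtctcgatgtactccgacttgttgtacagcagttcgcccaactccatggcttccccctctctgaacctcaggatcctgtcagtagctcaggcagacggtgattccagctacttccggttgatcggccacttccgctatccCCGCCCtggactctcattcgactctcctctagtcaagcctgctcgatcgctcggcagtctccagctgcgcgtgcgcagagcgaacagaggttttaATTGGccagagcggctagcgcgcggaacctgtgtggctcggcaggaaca
Rnf8 (chr17:29614539-29614838, plus strand): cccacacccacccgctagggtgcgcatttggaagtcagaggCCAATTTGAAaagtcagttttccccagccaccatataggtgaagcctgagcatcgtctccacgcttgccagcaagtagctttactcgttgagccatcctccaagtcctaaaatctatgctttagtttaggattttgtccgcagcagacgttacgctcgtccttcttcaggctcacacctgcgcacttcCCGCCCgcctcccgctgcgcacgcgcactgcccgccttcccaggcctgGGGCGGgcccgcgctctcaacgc
Brca2 (chr5:150522371-150522670, plus strand): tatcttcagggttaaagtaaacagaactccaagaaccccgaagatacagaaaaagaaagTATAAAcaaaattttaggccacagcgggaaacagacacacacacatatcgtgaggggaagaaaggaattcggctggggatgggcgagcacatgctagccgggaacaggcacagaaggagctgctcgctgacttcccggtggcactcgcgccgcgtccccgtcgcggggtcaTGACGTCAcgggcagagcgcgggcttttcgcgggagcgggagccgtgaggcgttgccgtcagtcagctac
In the Rnf8 promoter the CCAAT box and the CHR overlap, and it also held 2 GC boxes. The Palb2 promoter held 1 CCAAT box and 1 GC box, the Brca2 promoter 1 CRE and 1 TATA box, and the Chek1 promoter none of these 5 motifs. Promoters were matched for 30 of 37 members, all but Exo1, Fancd2, Nbn, Prkdc, Rad50, Rad51d and Xrcc2. A CCAAT box stood in 17 of the 30 (56.7%), against 43.4% of 9765 tested genes with a promoter, and a GC box in 22 (73.3%), against 70.8%. Also searched were the NRF1 site (GCGCATGC), found in 5 members (16.7%) against 6.28%, and the E2F site (TTTCGCGC), found in Topbp1 and Rad51c (6.67%) against 0.860%. The E2F variant TTTGGCGC was in 0 members against 1.17%, the CHR variant TTCGAA in Atr against 2.55%, the CHR in 3 members (10%) against 13.9%, the CRE in 2 (6.67%) against 3.58% and the TATA box in 2 (6.67%) against 8.55%. Each motif was matched only as the exact letters given, so looser forms of a site were not counted or marked, also in the printed promoters. The counts thus do not show which members lack an E2F site. Motif matches are a description of these windows only. A match was counted anywhere in the window, so its distance from the gene start was not taken into account, also for the TATA box. The median log2 fold change was 0.05 in the 17 members with a CCAAT box and 0.08 in the 13 without one.

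The libraries differed in ways that touch these genes. Depth could only be approximated, from the smallest steps of FPKM, and was lowest in cKO replicate 1 at about 7200000 fragments and highest in WT replicate 1 at about 14400000. FPKM summed to 335667 in cKO replicate 1, against 223845 to 246121 in the other 5 libraries. That library held the highest value of the 6 for 24 members (64.9%), as it did for 58.0% of all tested genes. A second scaling divided each library by the median ratio of its values to each gene's geometric mean over the libraries (median-of-ratios scaling). The median was taken over genes above 0 in every library with a mean of at least 1 FPKM. With this scaling 1.29% of tested genes were called and again 0 members. After scaling 6 members had an unadjusted p under 0.05 (16.2%, against 18.9% of all tested genes). The median log2 fold change of the list was then -0.02, against 0.00 for all. Of the members 18 were then positive and 19 negative, against 6226 and 6216 of all tested genes. Hnrnpl itself stood at 100.5, 81.5 and 85.2 FPKM in cKO libraries and at 104.2, 93.8 and 101.9 FPKM in WT libraries, a difference that did not pass (limma adjusted p = 0.571). A value over the whole gene cannot single out the floxed exons and other ovarian cells also make this RNA, so the labels could not be checked by it.

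In the values as deposited limma called 0 marker genes, with 6 of 10 germ cell, 2 of 10 pregranulosa, 4 of 8 stroma, 6 of 7 endothelium and 0 of 3 tested immune markers at an unadjusted p under 0.05, against 14.2% of all tested genes. After scaling these counts were 7 germ cell, 5 pregranulosa, 8 stroma, 7 endothelium and 1 immune, against 18.9% of all tested genes. Cell markers were compared as summed FPKM. The 10 germ cell markers summed to 133.7 to 247.7 in cKO libraries and 106.7 to 112.5 in WT libraries, and the 10 pregranulosa markers to 477.2 to 590.3 in cKO and 482.9 to 493.0 in WT. The 8 stroma markers summed to 785.8 to 860.3 in cKO and 1020 to 1070 in WT, and the 7 endothelium markers to 59.6 to 71.3 in cKO and 74.8 to 92.9 in WT. The 6 immune markers summed to 9.19 to 11.7 in cKO and 9.08 to 14.7 in WT, and no marker was at 0 in every library. Ovarian identity was plain from Foxl2, a granulosa factor, at 73.8 ± 11.3 FPKM in cKO and 59.2 ± 1.44 FPKM in WT, and from Ddx4, a germ cell helicase, at 4.80 ± 1.55 and 4.97 ± 0.638 FPKM (SD, n = 3 each). Ddx4 does not stand for its list: it was among the 2 germ cell markers with negative log2 fold changes, and 8 were positive. Median log2 fold changes were 0.64 for germ cell, 0.06 for pregranulosa, -0.34 for stroma and -0.42 for endothelium markers, and the part of these differences in any member's value was not tested. After scaling 4 germ cell markers rose and 1 fell, 1 pregranulosa marker (Lhx9) fell and 1 stroma marker (Col5a2) fell. The 2 markers with the smallest p were Tex15 and Mov10l1 for germ cells, Lhx9 and Kitl for pregranulosa, Col5a2 and Pdgfra for stroma, Egfl7 and Robo4 for endothelium and Csf1r and Tyrobp for immune cells. Tex15 stood at 27.1, 23.8 and 19.5 FPKM in cKO and at 10.7, 13.1 and 10.8 FPKM in WT (limma adjusted p = 0.062, and 0.016 after scaling).

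Parp1 was the most abundant member at a mean of 35.0 FPKM over all libraries, followed by Msh6 at 16.9, Topbp1 at 16.3, Xrcc6 at 12.8, Rnf8 at 12.5, Xrcc5 at 11.02 and Atr at 10.6. Those 7 stood at 10 FPKM or more, 25 stood between 2 and 10, and Fancg, Lig4, Fanca, Rad51b and Rad51c stood under 2. Neighbours in this order mostly overlapped: Msh6 and Topbp1, for example, differed by less than the spread between libraries. The median member stood at 3.51 FPKM, against 7.30 FPKM for all tested genes. Members had long transcripts, with a median of 4485 bases for the longest annotated transcript, against 3370 for all tested genes. At the estimated depths Parp1 had at least about 1345 fragments in every library, and Rad51b had about 16 in cKO replicate 1, its lowest, assuming that the longest transcript was the source. The coefficient of variation had a median of 17.3% among cKO libraries and 9.08% among WT libraries, against 16.3% and 8.72% over all tested genes.

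**Figure D1:**
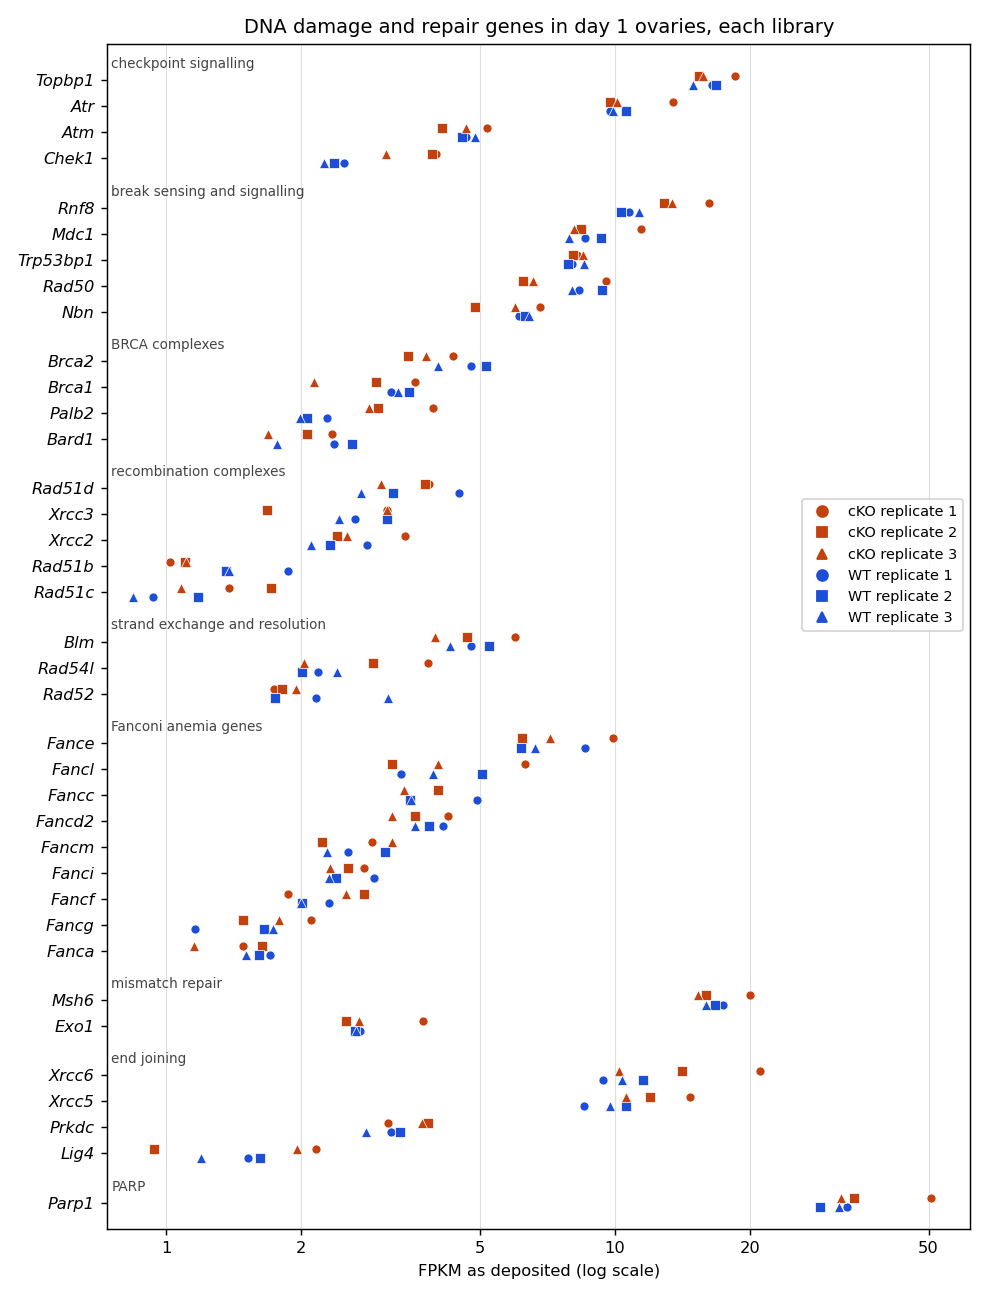
FPKM of each member in every library on a log axis, with cKO libraries (orange) above WT libraries (blue) and replicates by marker shape. Only Chek1, Palb2 and Rnf8 had all cKO points above all WT points (8.11% of members, against 15.5% of all tested genes). Only Rad51b had all below (2.7%, against 7.03%).

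The checkpoint genes opened the list with its smallest p. Chek1 encodes the kinase CHK1, which ATR activates to hold the cell cycle. It stood at 3.996, 3.906 and 3.084 FPKM in cKO libraries and at 2.50, 2.37 and 2.24 FPKM in WT libraries. Every cKO library was above every WT library, yet at a log2 fold change of 0.46 the gene did not pass (SE 0.12, 95% interval 0.18 to 0.74, limma adjusted p = 0.188, from 0.103 to 0.518 over the alternatives). Atm, the kinase that answers breaks, stood at 5.20, 4.11 and 4.66 FPKM in cKO and at 4.66, 4.58 and 4.89 FPKM in WT. Its groups overlapped fully, with a log2 fold change of -0.02 (SE 0.11, 95% interval -0.26 to 0.23, limma adjusted p = 0.953). Topbp1, which activates ATR, was the most abundant checkpoint gene at 18.5, 15.4 and 15.7 FPKM in cKO and 16.5, 16.8 and 15.0 FPKM in WT. Atr averaged 11.1 ± 2.05 FPKM in cKO and 10.1 ± 0.460 FPKM in WT (SD, n = 3 each).

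Among 5 genes of break sensing, 3 had positive and 2 negative log2 fold changes, though Mdc1 and Trp53bp1 were negative under some scalings, at -0.10 and -0.16 with TPM rescaling. Rnf8 encodes a ubiquitin ligase that marks chromatin beside breaks, and it stood at 16.2, 12.9 and 13.4 FPKM in cKO and at 10.8, 10.3 and 11.3 FPKM in WT. The groups did not overlap, with a log2 fold change of 0.35 (SE 0.11, 95% interval 0.10 to 0.61, limma adjusted p = 0.239). For Rnf8 the limma adjusted p ran from 0.079 to 0.532 over the alternatives, lowest with the length and GC correction. Part of its exons, 13.2%, is shared with Gm28043, a gene on the same strand at a mean of 0.548 FPKM. Rad50 and Nbn belong to the MRN complex, which binds broken ends and recruits ATM. Rad50 stood at 9.56, 6.23 and 6.57 FPKM in cKO and at 8.33, 9.35 and 8.04 FPKM in WT, so that cKO replicate 1 lay above all WT values and the other cKO replicates below them (log2 fold change -0.20, and -0.37 without cKO replicate 1, -0.10 without cKO replicate 2 and -0.13 without cKO replicate 3). Nbn stood at 6.80, 4.88 and 5.99 FPKM in cKO and at 6.11, 6.31 and 6.44 FPKM in WT. After scaling both lay below WT in every cKO library, with log2 fold changes of -0.28 for Rad50 and -0.17 for Nbn that did not pass (limma adjusted p = 0.206 and 0.387). Mdc1, the scaffold that holds ATM at breaks, averaged 9.32 ± 1.83 FPKM in cKO and 8.602 ± 0.694 FPKM in WT. Trp53bp1, which favours end joining over resection, averaged 8.27 ± 0.209 and 8.15 ± 0.363 FPKM (SD, n = 3 each). It had the narrowest interval of the list, reaching from -0.18 to 0.22, and shares 15.0% of its exons with Tubgcp4 on the other strand.

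Among the BRCA genes Palb2 had a positive log2 fold change and Brca1, Brca2 and Bard1 negative ones. Palb2, which links BRCA1 to BRCA2, stood at 3.94, 2.97 and 2.84 FPKM in cKO and at 2.28, 2.06 and 1.98 FPKM in WT. All cKO values were above all WT values, yet at a log2 fold change of 0.44 the gene did not pass (SE 0.14, 95% interval 0.13 to 0.76, limma adjusted p = 0.228). Brca2, a core gene of homologous recombination, stood at 4.36, 3.46 and 3.80 FPKM in cKO and at 4.79, 5.15 and 4.04 FPKM in WT. Its log2 fold change was -0.21 (SE 0.12, limma adjusted p = 0.452), and after scaling the groups no longer overlapped, at 3.71, 3.57 and 3.91 in cKO and 4.85, 5.24 and 4.25 in WT (log2 fold change -0.29, limma adjusted p = 0.191). Brca1, which promotes resection as a ubiquitin ligase with BARD1, stood at 3.58, 2.94 and 2.13 FPKM in cKO and at 3.18, 3.48 and 3.29 FPKM in WT. Its log2 fold change of -0.17 (SE 0.15) had an interval from -0.52 to 0.18 (limma adjusted p = 0.623), with values of -0.02 when cKO replicate 3 was left out and -0.30 when cKO replicate 1 was. Bard1 stood at 2.34, 2.06 and 1.69 FPKM in cKO and at 2.37, 2.60 and 1.76 FPKM in WT, with partial overlap.

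The products of Rad51b, Rad51c, Rad51d, Xrcc2 and Xrcc3 form complexes in homologous recombination. Rad51d was the median member in abundance, at a mean of 3.51 FPKM over all libraries, and the other genes of this group stood below it. Rad51b stood at 1.02, 1.102 and 1.11 FPKM in cKO and at 1.87, 1.36 and 1.38 FPKM in WT. It was the one member with every cKO value below every WT value, and at a log2 fold change of -0.28 it did not pass (SE 0.15, 95% interval -0.64 to 0.07, limma adjusted p = 0.436). Counting alone gives an error of about 25% in cKO replicate 1. Without WT replicate 1 the log2 fold change was -0.19, and with a pseudocount of 0.1 it was -0.46. Rad51c stood at 1.38, 1.71 and 1.08 FPKM in cKO and at 0.934, 1.18 and 0.842 FPKM in WT, and the groups overlapped (log2 fold change 0.26, SE 0.17, limma adjusted p = 0.501, with 0.17 without cKO replicate 2 and 0.45 with a pseudocount of 0.1). Rad51d stood at 3.84, 3.78 and 3.01 FPKM in cKO and at 4.49, 3.21 and 2.72 FPKM in WT. Xrcc2 averaged 2.78 ± 0.543 FPKM in cKO and 2.41 ± 0.362 FPKM in WT, and Xrcc3 2.63 ± 0.827 and 2.72 ± 0.348 FPKM (SD, n = 3 each).

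Genes of strand exchange and resolution overlapped between groups. Rad54l, a motor protein of homologous recombination, stood at 3.83, 2.89 and 2.02 FPKM in cKO and at 2.18, 2.01 and 2.41 FPKM in WT. Its log2 fold change was 0.27 (SE 0.18, limma adjusted p = 0.516), against 0.10 without cKO replicate 1 and 0.44 without cKO replicate 3. Of its exons 15.4% is shared with Lrrc41, a more abundant gene on the other strand at a mean of 24.7 FPKM. Rad52, which anneals single strands, stood at 1.74, 1.82 and 1.95 FPKM in cKO and at 2.15, 1.75 and 3.13 FPKM in WT (log2 fold change -0.22, SE 0.17, limma adjusted p = 0.561, with values of -0.06 without WT replicate 3 and -0.35 without WT replicate 2). Blm, the helicase that dissolves joined DNA molecules, stood at 5.98, 4.68 and 3.97 FPKM in cKO and at 4.77, 5.24 and 4.28 FPKM in WT.

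The 9 Fanconi anemia genes, whose products repair crosslinks between DNA strands, all overlapped, with log2 fold changes from -0.11 to 0.15 and a median of 0.05. Fance, a core complex subunit, was the most abundant at 9.90, 6.22 and 7.19 FPKM in cKO and 8.59, 6.19 and 6.63 FPKM in WT. Fanca, another core subunit, was the least abundant at 1.48, 1.63 and 1.15 FPKM in cKO and 1.71, 1.61 and 1.504 FPKM in WT. Of the remaining core genes, Fancc averaged 3.82 ± 0.363 FPKM in cKO and 3.98 ± 0.821 FPKM in WT, Fancf 2.38 ± 0.460 and 2.11 ± 0.177, and Fancg 1.79 ± 0.309 and 1.51 ± 0.311 FPKM. Fancl, the ubiquitin ligase of the pathway, averaged 4.51 ± 1.62 FPKM in cKO and 4.11 ± 0.870 FPKM in WT, and Fancm, a DNA translocase, 2.77 ± 0.488 and 2.63 ± 0.403 FPKM. The ligase's substrates Fancd2 and Fanci averaged 3.67 ± 0.534 and 2.54 ± 0.224 FPKM in cKO and 3.86 ± 0.281 and 2.54 ± 0.327 FPKM in WT (SD, n = 3 each throughout). Fancd2 lay below WT in every cKO library after scaling, at 3.61, 3.70 and 3.28 in cKO and 4.19, 3.93 and 3.77 in WT (limma adjusted p = 0.493). Fanca, Fancc, Fancf, Fancl and Fanci share 10% to 16.4% of their exons with a gene on the other strand, and the labels do not state whether counting used strand.

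Both mismatch repair genes overlapped between groups. Msh6, which recognises mispaired bases, stood at 20.01, 15.96 and 15.32 FPKM in cKO and at 17.4, 16.7 and 15.9 FPKM in WT. Exo1, a nuclease of mismatch repair and of resection, stood at 3.741, 2.516 and 2.697 FPKM in cKO and at 2.704, 2.640 and 2.65 FPKM in WT. Its WT coefficient of variation of 1.28% was the lowest of the list, against 22.2% in cKO.

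All 4 end joining genes and Parp1 had positive log2 fold changes, as did 8108 of 12442 tested genes, and none of these members passed. Lig4 was the exception in some settings, at -0.03 with TPM rescaling, with library weights and without cKO replicate 1. Xrcc5 and Xrcc6 encode Ku80 and Ku70, which cap broken ends. Xrcc5 stood at 14.72, 11.95 and 10.58 FPKM in cKO and at 8.54, 10.59 and 9.75 FPKM in WT, so that the lowest cKO and the highest WT value met. Its log2 fold change was 0.33 (SE 0.14, limma adjusted p = 0.340), against 0.21 without cKO replicate 1 and 0.43 without cKO replicate 3. Xrcc6 stood at 21.03, 14.12 and 10.22 FPKM in cKO and at 9.39, 11.5 and 10.4 FPKM in WT, the widest interval of the list at -0.08 to 0.96. With all libraries its log2 fold change was 0.44 (SE 0.22, limma adjusted p = 0.414), against 0.19 without cKO replicate 1 and 0.68 without cKO replicate 3. Prkdc, the kinase that Ku recruits, stood at 3.12, 3.83 and 3.72 FPKM in cKO and at 3.17, 3.33 and 2.78 FPKM in WT (log2 fold change 0.15, SE 0.12, limma adjusted p = 0.553). Lig4, the ligase that seals the ends, stood at 2.15, 0.940 and 1.95 FPKM in cKO and at 1.52, 1.62 and 1.20 FPKM in WT. Parp1, a sensor of strand breaks that adds ADP-ribose chains, stood at 50.6, 34.2 and 32.0 FPKM in cKO and at 32.9, 28.7 and 31.6 FPKM in WT. Replicate 1 of cKO stood far above the rest, and the log2 fold change was 0.29 (SE 0.18, limma adjusted p = 0.476), against 0.09 without that library.

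**Figure D2:**
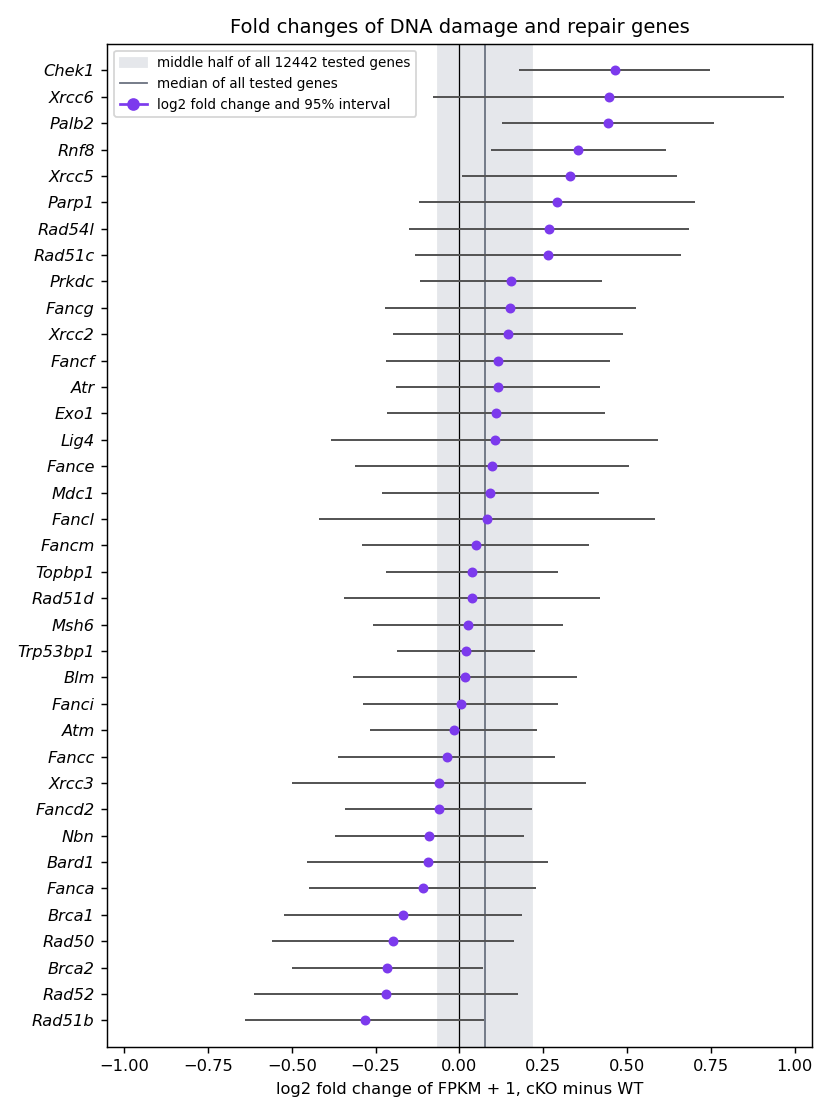
Log2 fold change of FPKM + 1 for each member (cKO minus WT, point) with its 95% interval from limma (line). The grey band is the interquartile range of all 12442 tested genes and the grey line their median of 0.08. All 37 intervals lay between -1 and 1.

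Over the list, the share of members whose groups did not overlap was set beside that of all tested genes. All cKO values were above all WT values for 3 members (8.11%), against 15.5% of tested genes, and below for 1 member (2.7%), against 7.03%. After scaling the counts were 4 members above (10.8%), against 12.6%, and 6 below (16.2%), against 13.0%. Those 4 were Chek1, Palb2, Rnf8 and Xrcc5, and those 6 were Brca1, Brca2, Rad50, Nbn, Fancd2 and Rad51b. The 95% intervals of all 37 members excluded a change of 1 on the log2 scale in either direction, with upper ends up to 0.96 and lower ends down to -0.64. With a pseudocount of 0.1 in place of 1, which understates low genes less, the intervals of 34 of 37 did so. No member had an absolute log2 fold change above 0.5 with all libraries and a pseudocount of 1, against 6.23% of all tested genes. With a pseudocount of 0.1 Chek1 was at 0.60 and Palb2 at 0.59, and without cKO replicate 3 Xrcc6 was at 0.68, Chek1 at 0.56 and Palb2 at 0.51. The share of all tested genes above 0.5 was not counted in those settings. The median member also stood lower, at 3.51 FPKM against 7.30 FPKM, and a pseudocount of 1 understates low genes more. The shares are therefore not compared at like levels.

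A plain ratio of FPKM between partner genes within a library does not depend on library scaling, while the log2 ratio of FPKM + 1 that was tested depends on it and on the pseudocount. A set of 9 such pairs, whose products bind each other, was compared, and only Brca2 over Palb2 did not overlap. Brca2 over Palb2 came to 1.11, 1.16 and 1.34 in cKO libraries and to 2.10, 2.50 and 2.03 in WT libraries as a ratio of FPKM. Every cKO ratio was below every WT ratio. The mean log2 ratio of FPKM + 1 was 0.20 ± 0.11 in cKO and 0.86 ± 0.13 in WT (SD, n = 3 each), a difference of -0.66 with an exact two-sided permutation p of 0.1 (the difference was -0.85 with a pseudocount of 0.1). That is the smallest p that 3 against 3 libraries allow, and adjusted over the 9 pairs it was 0.643. The ratio is taken from 2 members whose own values are given above, so it is not separate evidence. The other pairs overlapped: Brca1 over Bard1, Rad50 over Nbn, Xrcc5 over Xrcc6, Fancd2 over Fanci, Rad51c over Xrcc3, Rad51d over Xrcc2, Fanca over Fancg, and Atr over Topbp1. Their differences ran from -0.26 for Fanca over Fancg to 0.32 for Rad51c over Xrcc3, with exact permutation p from 0.3 to 0.7. Rad51c over Xrcc3 came to 0.02 without cKO replicate 2 and to 0.54 with a pseudocount of 0.1, and Fanca over Fancg to -0.13 without WT replicate 1, to -0.40 without cKO replicate 2 and to -0.41 with that pseudocount. The other 6 overlapping pairs also moved by over 1.5 times when 1 or another library was left out, and Brca2 over Palb2 ran from -0.72 to -0.58. Xrcc5 over Xrcc6 held close in WT at 0.910, 0.918 and 0.940, while cKO libraries gave 0.700, 0.847 and 1.04.

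**Figure D3:**
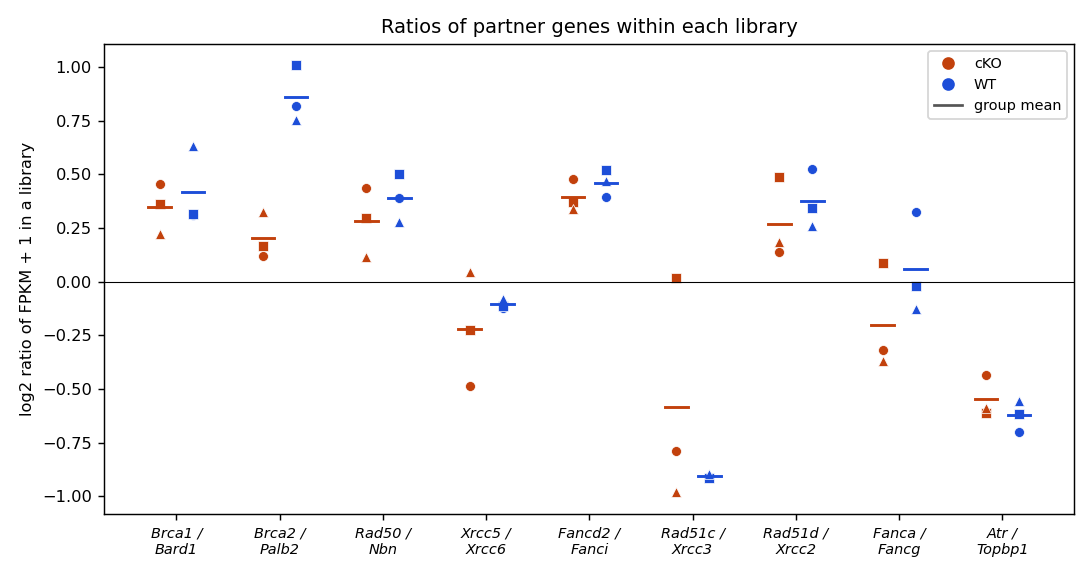
Log2 ratio of FPKM + 1 of each partner pair in every library, cKO (orange) left of WT (blue), with bars at the group means. Brca2 over Palb2 was lower in all 3 cKO libraries, with a mean of 0.20 in cKO and 0.86 in WT.

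Of the members, 12 start within 1000 bases of a protein-coding gene on the other strand (GENCODE M21), a layout in which 1 promoter region can serve both genes. Palb2 (chromosome 7, 122107262 to 122132985, GRCm38) starts 56 bases from Dctn5, a dynactin subunit gene. Dctn5 stood at 19.9, 14.5 and 15.9 FPKM in cKO and at 18.4, 17.3 and 17.0 FPKM in WT, with overlap and a log2 fold change of -0.08, against 0.44 for Palb2 (the difference between the genes was not tested). Atm (chromosome 9, 53439149 to 53536740) starts 307 bases from Npat, a regulator of histone genes, which averaged 5.29 ± 0.141 FPKM in cKO and 5.97 ± 0.299 FPKM in WT. Brca1 (chromosome 11, 101488764 to 101551955) starts 194 bases from Nbr1, an autophagy receptor gene, at 17.3 ± 3.10 FPKM in cKO and 16.9 ± 0.940 FPKM in WT. Prkdc starts 466 bases from Mcm4, a subunit of the replicative helicase, at 12.6 ± 2.04 and 12.8 ± 0.721 FPKM (SD, n = 3 each). Of the 12 neighbours 11 were tested and 0 called, before or after scaling. Signs of the log2 fold changes of member and neighbour matched in 6 of 11. Gas2, which overlaps the first bases of Fancf, had the largest log2 fold change of these neighbours at 0.54, with 10.4, 7.88 and 7.49 FPKM in cKO and 4.80, 6.62 and 5.29 FPKM in WT (limma adjusted p = 0.201).

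A wider set of DNA damage and repair genes, which includes translesion and excision repair, also held no called gene. Its median log2 fold change lay above that of all tested genes, and that of the members below, before and after scaling. These medians were not tested against each other. A list of 115 further damage and repair genes had 113 tested, of which 0 rose and 0 fell (limma, before and after scaling). At an unadjusted p under 0.05 stood 13 (11.5%), against 14.2% of all tested genes. After scaling 11 did (9.73%), against 18.9%. The median log2 fold change of the 113 was 0.12, against 0.08 for all tested genes, with 85 positive and 28 negative. After scaling it was 0.04, with 66 positive and 47 negative. Over all tested genes 8108 were positive and 4334 negative, and after scaling 6226 and 6216. Rev1, a translesion polymerase, had the smallest p among those with positive values, at 15.9, 12.6 and 11.4 FPKM in cKO and 9.72, 9.03 and 9.14 FPKM in WT (limma adjusted p = 0.201). Cetn2, a centrin that also serves in nucleotide excision repair, followed at 16.1 ± 3.40 FPKM in cKO and 10.8 ± 0.670 FPKM in WT, and Neil2, a DNA glycosylase, at 6.09 ± 0.952 and 3.73 ± 1.14 FPKM. On the negative side stood Clspn, the adaptor through which ATR reaches CHK1, at 2.19 ± 0.673 FPKM in cKO and 3.17 ± 0.275 FPKM in WT. Polh, a translesion polymerase, and Ddx11, a helicase, had log2 fold changes of -0.22 and -0.28. Rmi2 and Parp3 were below the filter of 1 FPKM.

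Genes of DNA replication and mitosis, which dividing cells share with many members, were compared as lists. The 48 replication genes had a median log2 fold change of 0.01, with 25 positive and 23 negative, and the 38 mitosis genes one of -0.07, with 14 positive and 24 negative. After scaling 15 replication genes were positive and 33 negative, and 9 mitosis genes were positive and 29 negative. In both lists limma called 0 genes, with 4 in each at an unadjusted p under 0.05 (8.33% of replication and 10.5% of mitosis genes, against 14.2% of all tested genes). After scaling 12 replication genes (25%) and 9 mitosis genes (23.7%) were under that p, against 18.9% of all tested genes, and 1 of them, Mki67, fell. Mki67, which marks cycling cells, had 13.3, 11.6 and 10.9 FPKM in cKO and 16.9, 18.1 and 15.9 FPKM in WT (limma adjusted p = 0.148, and 0.020 after scaling). Bub1b, a spindle checkpoint kinase, averaged 5.22 ± 0.460 FPKM in cKO and 6.57 ± 0.812 FPKM in WT. Among replication genes, Orc2, of the origin recognition complex, averaged 8.73 ± 0.680 FPKM in cKO and 6.63 ± 0.668 FPKM in WT, and Tk1, a thymidine kinase, 8.53 ± 2.18 and 12.2 ± 1.16 FPKM (SD, n = 3 each). Neither passed. The damage and repair members' median of 0.05 lay between those of the replication genes and of all tested genes, and these medians were not tested against each other.

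**Figure D4:**
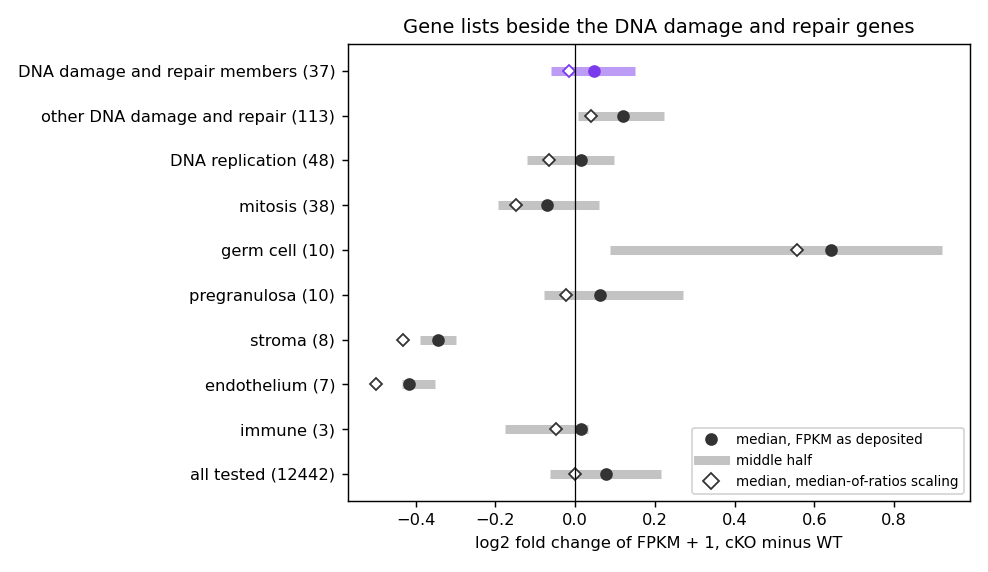
Median log2 fold change of each gene list (cKO minus WT, filled point) with its interquartile range (bar), and the median after median-of-ratios scaling (open diamond). The number of tested genes is in brackets. The 37 members sat at 0.05, near the 0.08 of all tested genes, while germ cell markers sat at 0.64 and endothelium markers at -0.42.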

How the data were processed

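The authors deposited 1 table of FPKM values for 6 libraries, whose columns were matched to sample titles. Per the submitters' processing notes, featureCounts 2.0.6, HISAT2 2.2.1, STAR 2.7.11a and build mm10 were used, in roles that are not stated. The program that made the FPKM and its annotation are not given in the sources used here. The table is named as made after duplicate removal. Libraries came from amplified cDNA, per the labels' protocols. Depth was estimated from the smallest FPKM steps of 2470 genes with 1 annotated transcript of at least 1500 bases, taking fragments of 200 bases.

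Genes averaging 1 FPKM or more were tested on log2(FPKM + 1), which understates changes of low genes, with limma 3.58.1 in R 4.3.3 (two-sided, intensity trend, Benjamini-Hochberg over all 12442 genes, called under 0.05). Steps were tested on simulated data. Partner ratios were tested with exact permutations. Alternatives were another pseudocount, other filters and scalings, other variance models, a replicate block, a length and GC correction and leaving out each library. GENCODE M21 gave transcript length and GC content (12363 of the tested genes), and RefSeq gave promoters.

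Members and lists were chosen with earlier results of these data known. Values in every library are given for the 12 members with the smallest p, the extremes of each role, and Brca1, Brca2, Atm, Chek1 and Parp1. Of other lists the 2 genes with the smallest p qualify for naming, and of further repair genes 3 in each direction. Foxl2, Ddx4 and the genes that start beside members were named outside that rule.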

Additional observations from a re-analysis of the deposited data

How the results depend on the processing

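No member was called under any alternative run, and no member whose log2 fold change exceeded its standard error changed sign. The count of all genes called, 15 of 12442, moved with most choices. It was 34 with a pseudocount of 0.1, 5 with no filter, 23 when only genes averaging 5 FPKM or more were kept (12 members), 161 with median-of-ratios scaling, 236 with quantile normalization, 117 with TPM rescaling, 5 with no intensity trend, 250 with the length and GC correction, 172 with library weights, and 2 to 89 when each library was left out. TPM rescaling shifted the median over all tested genes by over 0.1, to a log2 fold change of -0.10, and that of the members to -0.103. Signs of members changed in 7 cases with median-of-ratios scaling, 7 with quantile normalization, 15 with TPM rescaling, 6 with the length and GC correction, 8 with library weights and 2 to 11 when a library was left out. With libraries left out, the log2 fold change of Atm ran from -0.0857 to 0.0539, and the difference in log2 ratio ran from -0.128 to 0.0351 for Brca1 over Bard1 and from -0.249 to 0.0175 for Xrcc5 over Xrcc6. Causes were not tested. The replicate numbers were not shown to pair libraries: deviations of same-numbered libraries correlated at -0.01, 0.04 and 0.07, and cKO replicate 1 correlated best with WT replicate 2. With the number as a replicate block 2 genes were called, and 0 members. Chosen after seeing the data, the count of 161 after median-of-ratios scaling was recomputed with the replicate block (25) and without each library (5 to 209), with 0 members each time. The lowest limma adjusted p of a member in those runs was 0.076, for Xrcc6 without cKO replicate 3. Counting limits Rad51b, Fancf and Rad51c most, with about 16, 23 and 37 fragments in the library where each had fewest.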
